A study of Mus musculus with 16 samples.

Results

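The clustered protocadherins are 58 of the 24972 genes listed in the bulk RNA-seq files, chosen by symbol alone (Pcdha, Pcdhb, Pcdhga, Pcdhgb and Pcdhgc followed by a number, and Pcdhac). They fall into an alpha cluster of 14 members, a beta cluster of 22 and a gamma cluster of 22, and 5 of them are C-type members (Pcdhac1, Pcdhac2, Pcdhgc3, Pcdhgc4 and Pcdhgc5). All mice were ArcCreERT2::eYFPflx on a C57BL/6 background, aged 3 to 4 months, with a tamoxifen-dependent Cre under the Arc promoter that can switch on eYFP. Trained mice learned active place avoidance, in which a rotating arena holds a shock zone that is switched on, and untrained mice were placed in the same arena with the shock off throughout. The groups therefore differ in shock as well as in learning, and all animals carried the transgenes. A retention test without shock came 24 h after the last training session, and dorsal hippocampus was taken 60 min after the test. CA1, CA3 and dentate gyrus (DG) were dissected by hand from sections and pooled per animal. The 16 libraries were 3 untrained and 3 trained in CA1, 2 and 3 in CA3, and 2 and 3 in DG, after the study dropped 1 untrained library each of CA3 and DG on quality.

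Clustered protocadherins are cadherin-family adhesion proteins of the neuronal surface. Each alpha or gamma isoform begins at its own promoter with a large variable exon, which codes for the extracellular, membrane-spanning and first cytoplasmic parts, and is spliced to constant exons that all isoforms of the cluster share. Beta genes have no constant exons. Most isoforms are thought to be chosen at random in each neuron, through promoter contacts made by CTCF and cohesin and through DNA methylation, so that neighboring neurons carry different combinations. Matching combinations on contacting membranes recognize each other, which underlies self-avoidance of dendrites and axons. C-type isoforms follow other rules and are used more uniformly by neurons of a kind.

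On chromosome 18 of GRCm38 the alpha members lie between 36930285 and 37188897, the beta members between 37264998 and 37521419, and the gamma members between 37661775 and 37841873, all as given by RefSeq. Every alpha transcript has 4 exons and shares 2860 bases of 3' exons with the other alpha transcripts, which is 48.6 to 54.9% of its length. Gamma transcripts also have 4 exons and share a median of 2119 bases, or 44.8% of their length. A read that lies within those exons alone does not tell the isoforms apart, so an isoform's value combines reads of its own bases with a share of such reads, and levels per kb below divide by the whole transcript. Counted as stretches of 31 bases found in no other member, a median of 37.4% of an alpha transcript was unique to it, against 53.6% in gamma and 88.2% in beta. Pcdha7 was the least unique member, at 29.8%, and shared 3335 such stretches with Pcdha8. These members are therefore reported as uncertain at the level of the single alpha isoform, where the quantification divides shared reads.

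Several facts about the libraries touch every result below. The files hold estimated counts that were already normalized, with 7607326 to 7984931 units per library. From the spacing of low values the depth was roughly 2550000 to 14940000 assigned reads. Between 3124 and 5944 genes were listed at 0 in 9 libraries and between 7567 and 9759 in the other 7, which were all CA1 trained libraries, CA3 trained 1 and 2, and DG untrained 1 and 3. Markers did not separate CA3 from DG libraries, and the CA1 markers Fibcd1, Wfs1 and Mpped1 stood above all other libraries in untrained CA1 libraries only. Prox1, which defines dentate granule cells, was at 3052 to 3861 in CA1, 2690 to 4786 in CA3 and 3292 to 4183 in DG. The CA1 marker Fibcd1 was at 921 to 1417 in CA1 untrained libraries, at 409 to 504 in CA1 trained libraries and at 210.4 to 685 elsewhere. Summed over 5 markers each, the CA1 list was at 3222 to 5210 in untrained and 1599 to 1986 in trained CA1, whereas the CA3 list was at 6354 to 7016 and 8819 to 9010. Most of the CA3 sum came from Nptx1. Grik4, Cdh24, Coch and Iyd averaged 288, 48.55, 39.5 and 8.84 in untrained CA1. In trained CA1 they averaged 424, 103, 12.7 and 9.32, so that Coch was lower there. No gene differed between CA3 and DG in limma (0 of 14673 tested, 715 at an unadjusted p under 0.05), and 286 genes differed between CA1 and DG. The subregion names below are therefore the labels of the dissected tissue.

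Sex-linked transcripts followed training. Xist, made from the inactive X chromosome, was at 7601 to 19592 in all 9 trained libraries and at 25.5 to 52.4 in 6 of 7 untrained libraries. The seventh, CA3 untrained 1, was at 10587 for Xist and 201 for the Y-linked Ddx3y, and DG trained 3 was at 7601 and 255. CA1 and DG untrained 1, which carry the same number as CA3 untrained 1, were at 26.1 and 25.5 for Xist and 553 and 448 for Ddx3y, so an animal below means only the libraries that share a number and training group in the labels. The study describes both sexes in both training groups, which these values do not show. Training and sex-linked transcripts can barely be told apart, and each member called for training, subregion or a difference of effects over all 16 libraries is given with and without CA3 untrained 1. The p-values below measure the spread between these libraries. In bulk tissue, fewer cells that use an isoform and less of it per cell cannot be told apart.

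The 58 members together made up 0.145% ± 0.00347 (SD, n = 16) of all units in a library. Of their summed value, the gamma cluster held 64.0% ± 0.958 (SD, n = 16), the beta cluster 19.3% ± 0.925 and the alpha cluster 16.7% ± 0.946. These shares moved little, with gamma between 62.2 and 65.3% in every library. The rank order of the 58 values was also similar between libraries, with Spearman correlations of 0.882 to 0.975 over the 120 pairs of libraries, a description across genes. Within the alpha cluster it ranged from 0.429 to 0.960.

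C-type members were the most abundant. Per kb of transcript, Pcdhgc5 had the highest level of all members at 348 ± 29.0 (SD, n = 16), followed by Pcdhgc3, which ran from 169.9 to 236.6 over the libraries. Pcdhgc5 is a partner of GABA-A receptors at synapses, and Pcdhgc3 acts on dendrite growth and binds Axin1. Pcdhac2, which is needed for the tiling of serotonergic axons, stood at 104 ± 8.03 per kb, level with Pcdhga11 at 104 ± 9.08. The remaining C-type members were not high. Pcdhgc4, the isoform tied to the survival of neurons, was at 32.0 ± 3.15 per kb and ranked 28 of 58, and Pcdhac1 was at 25.6 ± 3.67 and ranked 36. The 5 C-type members held 30.99% ± 1.11 of the summed value of all 58 members.

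**Figure D1:**
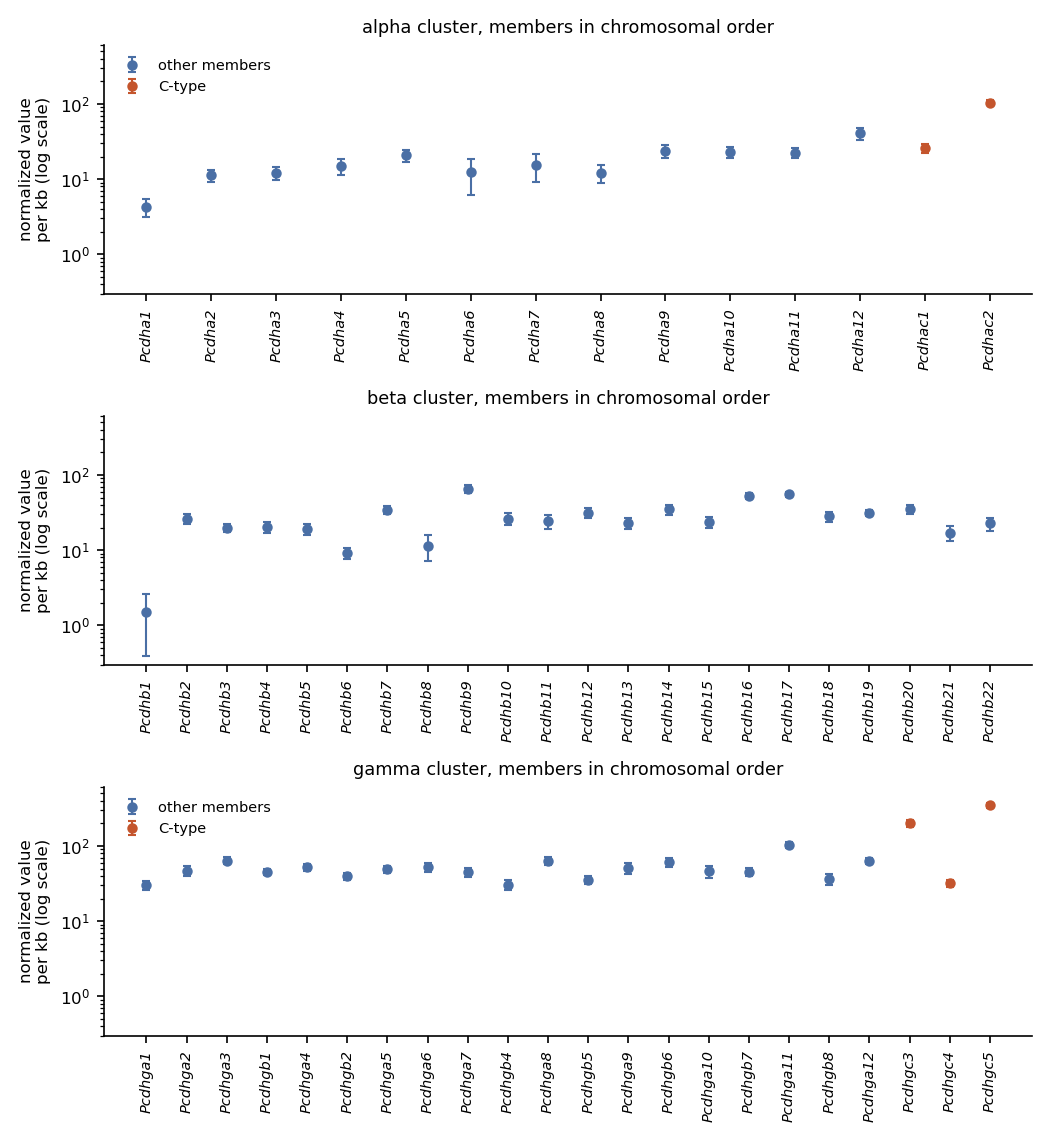
Normalized value per kb of transcript (log axis) for each member, with members in chromosomal order in 3 panels. Points are means over 16 libraries and bars are SDs. Pcdhgc5, Pcdhgc3 and Pcdhac2 stand highest, Pcdhgc5 at 348 per kb, and Pcdhb1 lowest, at 1.51.

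Other alpha members had lower levels, with a median of 15.2 per kb over 12. Pcdha12 was highest at 40.8 ± 7.88 per kb, then Pcdha9 at 23.7 ± 4.36 and Pcdha10 at 22.8 ± 3.76. Pcdha9 and Pcdha10 did not differ beyond their spread. Pcdha1, the member nearest the start of the cluster, was lowest at 4.26 per kb, with 2.10 to 6.60 over the libraries. Among the 12, level and order along the chromosome had a Spearman correlation of 0.87, with higher levels nearer the constant exons, given as a description. For the 22 beta members the correlation was 0.40 and for the 19 gamma members other than C-type it was 0.22.

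Beta members other than Pcdhb1 lay between 9.10 per kb for Pcdhb6 and 66.1 for Pcdhb9. Pcdhb9 was at 66.1 ± 8.48 per kb, Pcdhb17 at 55.2 ± 4.55 and Pcdhb16 at 52.2 ± 4.54. The length used for a beta gene matters. With the longer GENCODE models Pcdhb17 was at 38.7 per kb, Pcdhb14 at 13.8 in place of 35.0, Pcdhb22 at 10.5 in place of 22.7, and Pcdhb8 at 8.09, below Pcdhb6 at 8.74. Pcdhb1 averaged 1.51 per kb, with values of 0 to 8.15 before division by length, was listed at 0 in 3 libraries, and was the only member that failed the filter on low values, so that 57 of 58 members were tested. In the gamma cluster the A and B isoforms were more even, from 30.2 per kb for Pcdhga1 to 104 for Pcdhga11. Length matters for Pcdhgb8 too, the member not matched by RefSeq accession. Its model had 2796 bases, 375 of them shared, compared with a gamma median of 4721.5. It was at 36.5 per kb on that model, although its mean value before division by length, 102.0, was the lowest in gamma. Pcdhga3 at 64.1 ± 7.13 and Pcdhga12 at 63.9 ± 6.34 came after Pcdhga11 and did not differ beyond their spread.

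Spread between libraries differed by cluster. The SD within groups on the log2(value + 2) scale had a median of 0.251 in alpha, 0.207 in beta and 0.156 in gamma members, against 0.164 over the 14673 genes that passed the filter. Pcdhac2 was the steadiest alpha member, with a coefficient of variation of 7.71% over 16 libraries. Pcdha6 was the least steady of the tested members, at 51.1%, and Pcdha7 followed at 41.4%.

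**Figure D2:**
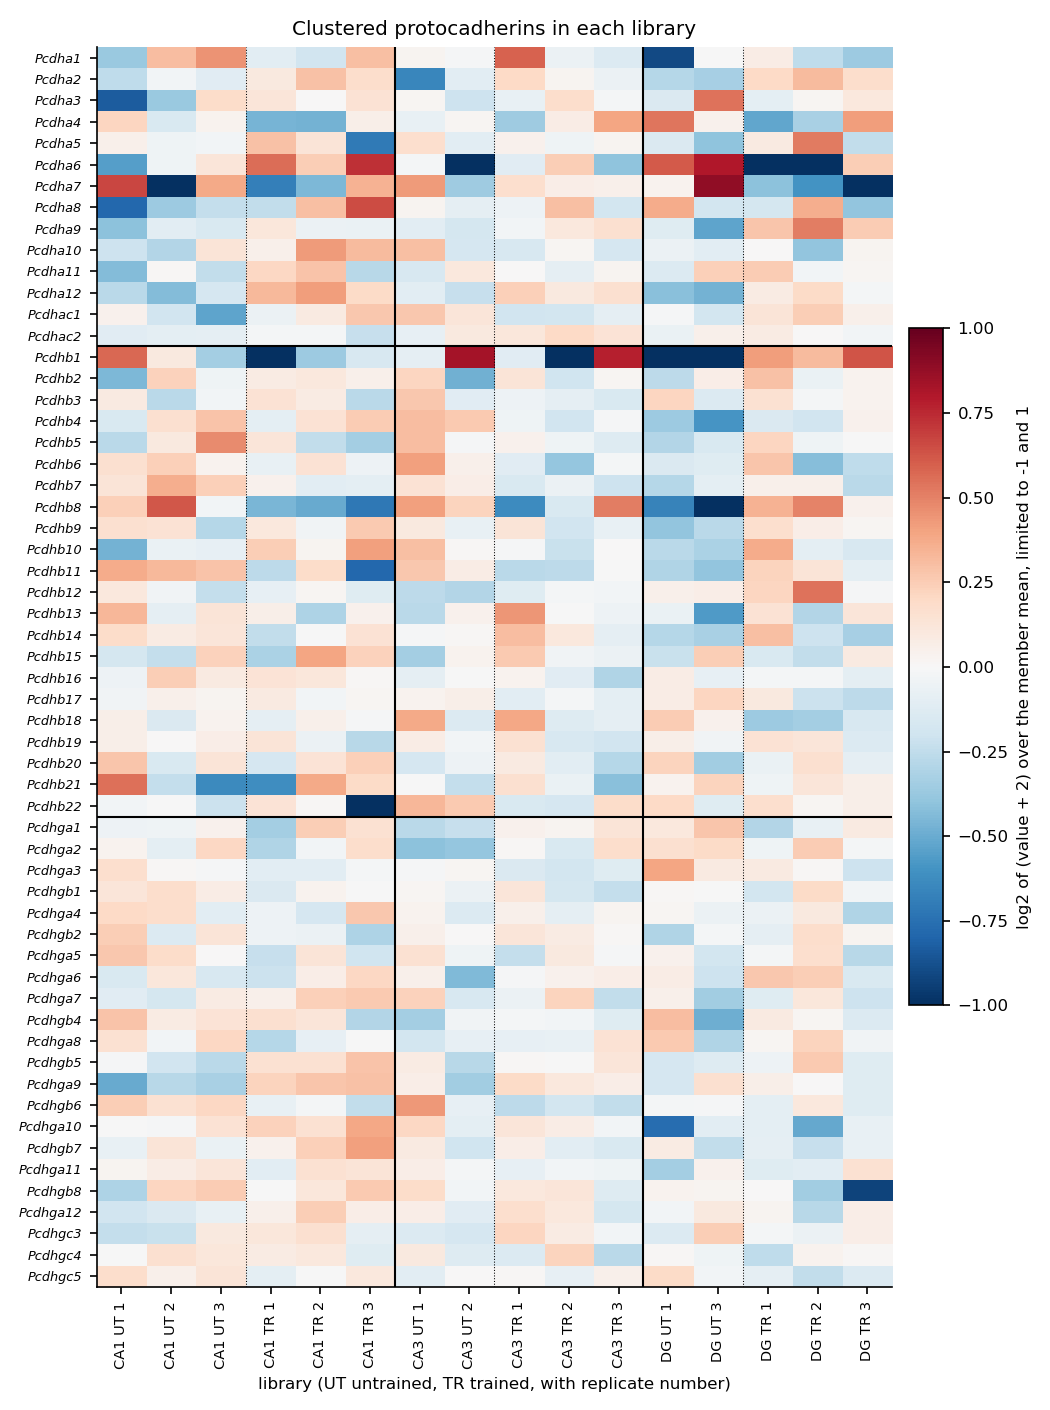
Log2 of each member's value + 2 over its own mean of value + 2, limited to -1 and 1, in rows by cluster and chromosomal order and in columns by library (UT untrained, TR trained). Alpha rows vary most between single libraries, and the gamma rows least, with median SDs within groups of 0.251 and 0.156.

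Pcdha6 was listed at 0 in DG trained 2 and was at 25.1 and 79.4 in the other DG trained libraries. It was at 103 and 117.5 in DG untrained libraries. In CA1 it was at 44.9, 64.8 and 72.9 in untrained and at 79.4, 99.3 and 112 in trained libraries, and in CA3 at 12.6 and 65.9 against 50.1, 61.7 and 79.3. Training groups did not overlap in CA1, where trained libraries were higher, or in DG, where they were lower, and overlapped in CA3. The difference was not called in any of them (limma adjusted p = 0.0596, 0.562 and 0.563 for CA1, CA3 and DG). The files also list 3 entries, Gm37013, Gm38666 and Gm38667, that RefSeq places from the start of Pcdha4, Pcdha6 and Pcdha7 to the end of the gamma cluster, as alpha-to-gamma read-through transcripts. The count of unique stretches above compared members only and left these entries out. Where Pcdha6 was at 0, in DG trained 2, Gm38666 was at 111.7, its highest value of the 16. The sum of Pcdha6 and Gm38666 was 115.2 ± 11.8 (SD, n = 16), a coefficient of variation of 10.3%, compared with 51.1% for Pcdha6 and 59.4% for Gm38666 alone. For Pcdha7 and Gm38667 the sum was 133.5 ± 19.4, at 14.5% compared with 41.4 and 58.4%. For Pcdha4 and Gm37013 the sum was 124.5 ± 25.6, at 20.6% compared with 23.5 and 85.3%. Gm37013 was itself called higher in trained mice over the 3 subregions (limma adjusted p = 0.0385) and in DG (limma adjusted p = 0.0219), at 8.10 to 116.5 in the 9 trained and 0 to 40.1 in the 7 untrained libraries, with both DG untrained libraries at 0. Gm38666 and Gm38667 were not called for training (limma adjusted p = 0.782 and 0.815 over the 3 subregions). The pairing was noticed after the values were seen and was not tested, and whether reads or transcripts shift between the entries cannot be told apart here.

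**Figure D3:**
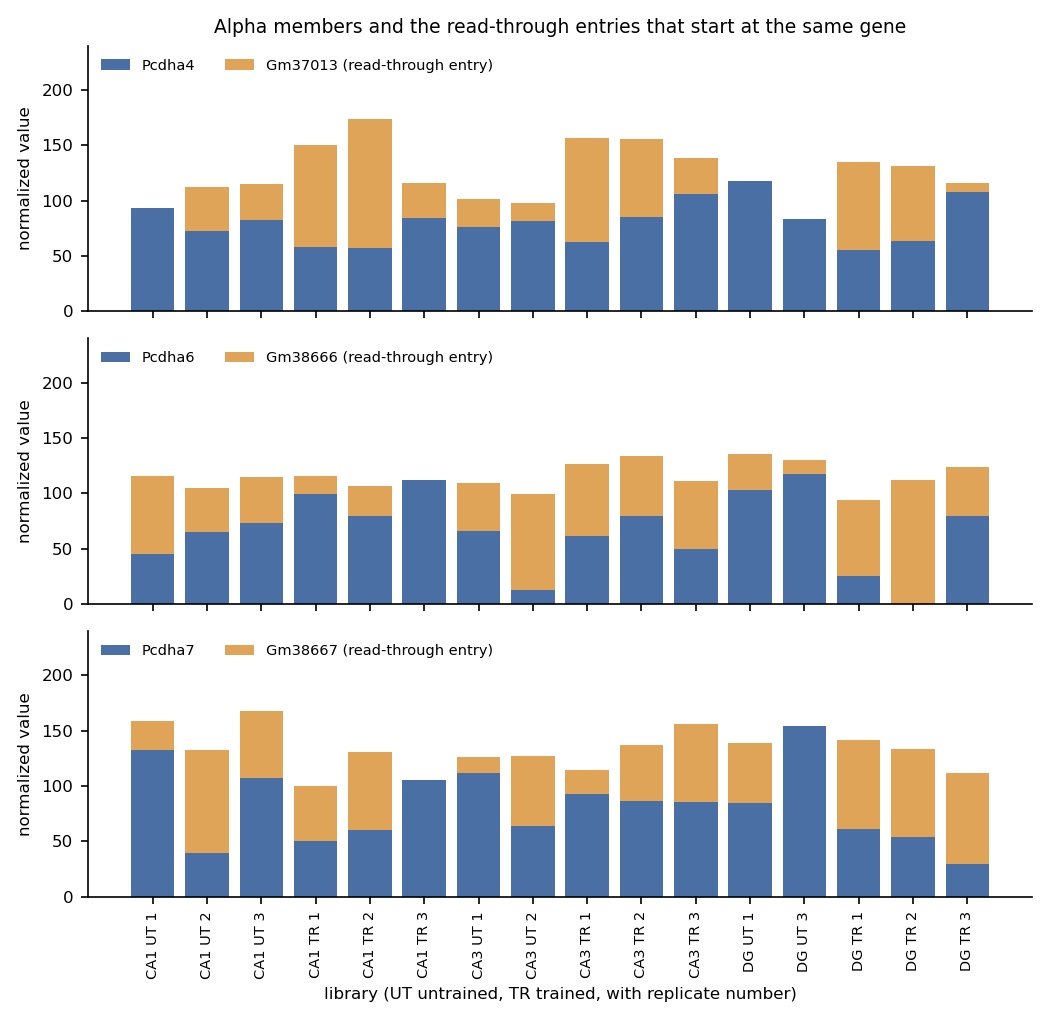
Stacked normalized values of Pcdha4, Pcdha6 and Pcdha7 (blue) and of the read-through entry that starts at the same gene (orange) in each of 16 libraries. The Pcdha6 and Gm38666 stacks reach 93.9 to 135.1, while Pcdha6 itself runs from 0 to 117.5.

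Between dissected subregions few members differed. The comparison used all 16 libraries with training as a term, and limma with Benjamini-Hochberg adjustment over 14673 genes. In CA1 against DG 1 of 57 members was called, compared with 1.95% of all genes. This was Pcdhga10, a gamma A isoform. Its values were 214.6, 215.8 and 239.5 in CA1 untrained, 241.4, 255 and 283.4 in CA1 trained, 126.8 and 201.5 in DG untrained, and 151.3, 202.7 and 205.2 in DG trained libraries. All 6 CA1 values were above all 5 DG values. CA1 was higher by 0.47 on the log2 scale (SE 0.11, limma adjusted p = 0.0214). Without CA3 untrained 1 the difference was 0.48 (limma adjusted p = 0.0178), and the call was lost without the animal untrained 1, trained 1 or trained 2 (0.39, 0.51 and 0.43, limma adjusted p = 0.0509, 0.0633 and 0.112). In CA3, where Pcdhga10 was at 202.2 to 250.6, it stood 0.37 above DG (SE 0.11, limma adjusted p = 0.945).

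No member was called in CA3 against DG (0% of all genes called by limma), where 5 of 57 members (8.77%) were at an unadjusted p under 0.05, compared with 4.87% of all genes. In CA1 against CA3 none was called either (0.211% of all genes), and 2 members (3.51%) were at an unadjusted p under 0.05, compared with 8.72% of all genes. The subregion means of Pcdhga10 had a coefficient of variation of 15.5%, and the other members with wide spreads are given here. Per kb, Pcdhb4 averaged 21.8 in CA1, 21.3 in CA3 and 17.1 in DG, and Pcdhb12 averaged 30.2, 28.3 and 35.8. Pcdhb22 averaged 20.2, 24.5 and 23.8. Pcdha6, with 1 DG library at 0, averaged 14.7, 10.05 and 12.1, Pcdha1 averaged 4.58, 4.62 and 3.52, and Pcdha9 averaged 22.0, 23.7 and 25.9. Pcdhb1 is left out, as it failed the filter. Pcdhgb8 averaged 39.2, 38.0 and 31.7 on its short model, with 1 low DG library, and Pcdhgb7 averaged 49.7, 43.8 and 42.3. None of these members other than Pcdhga10 was called in any subregion comparison by limma.

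Training was compared first within each subregion. In CA1, Pcdha12 and Pcdhga9 rose in trained mice, 2 of 57 members (3.51%) compared with 5.23% of all genes called in either direction and 3.53% called higher. In DG, Pcdha12 and Pcdha9 rose, again 2 of 57, compared with 3.39% of all genes in either direction and 1.74% higher. Both DG calls were lost on leaving out any 1 trained DG library. In CA3 no member was called by limma, compared with 0.852% of all genes, and 8 of 57 members (14.0%) were at an unadjusted p under 0.05, compared with 15.8% of all genes. The members' share of calls in CA1 and in DG was thus at or near that of all genes. Over the 3 subregions together, with subregion as a term, 6 of 57 members were called, or 10.5%, near the 10.3% of all genes, with 4 higher (6.28% of all genes) and 2 lower (4.06% of all genes). This fit takes the 9 trained and 7 untrained libraries as independent, whereas by their numbers they come from 3 animals in each training group. With 1 value per animal, an alternative added after seeing the data, 3 members (Pcdha9, Pcdha12 and Pcdhga9) and 964 genes were called, compared with 1517, and with the animal as a random effect 7 members and 1758 genes. The random-effect fit estimated a correlation of −0.0355 within animals, so it did not widen the errors. The 6 members called with libraries taken as independent were 3 of 14 alpha, 0 of 21 beta and 3 of 22 gamma members. The difference between clusters was not tested. Cell markers moved with training too. In CA1, limma called 2 of 5 CA1 markers lower, and 3 of 5 CA3 markers higher and 1 lower. Choroid plexus markers, none called there, summed to 1008 to 1159 in untrained and 305 to 2380 in trained libraries. In CA3, 2 of 5 choroid plexus markers were called lower, with sums of 814 to 1115 in untrained and 236 to 319 in trained libraries. There, 1 of 5 CA3 markers and 1 of 6 interneuron markers were called higher. In DG, 2 of 5 dentate granule markers were called lower. Prox1 was at 4118 to 4183 in untrained and 3292 to 3367 in trained DG. The part of these markers in the members' calls was not tested.

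Pcdha12 differed most clearly. It was at 160.5, 180.2 and 192.9 in CA1 untrained libraries and at 248.8, 272 and 291.9 in CA1 trained libraries. In CA3 it was at 185 and 201.9 in untrained and at 233.1, 242.7 and 257.1 in trained libraries. In DG it was at 156.1 and 162 in untrained and at 214.7, 230.9 and 249.2 in trained libraries. Every trained library was above every untrained library, CA3 untrained 1 included. The difference on the log2(value + 2) scale was 0.60 in CA1 (SE 0.11, limma adjusted p = 0.00289), 0.33 in CA3 (SE 0.10, limma adjusted p = 0.156) and 0.53 in DG (SE 0.13, limma adjusted p = 0.0314). Without any 1 of the trained DG libraries the DG difference was 0.48 to 0.59 (limma adjusted p of 0.0956 to 0.149). Over the 3 subregions it was 0.50 (SE 0.07, limma adjusted p = 0.000114), and 0.53 without CA3 untrained 1 (limma adjusted p = 9.2e-05). Its training effect was not called as different between any subregions, with a difference of 0.27 (SE 0.16, limma adjusted p = 0.782) in CA1 against CA3.

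Pcdha2 and Pcdha9, also alpha isoforms, rose in the comparison over subregions. Pcdha2 was at 50.3, 55.5 and 59.2 in untrained CA1 and at 64.5, 68.4 and 74.3 in trained CA1. In CA3 it was at 37.6 and 55.8 against 57.7, 61.5 and 69.7, and in DG at 47.5 and 49.1 against 68.4, 69.5 and 75.5. Groups did not overlap in any of the subregions, and the difference over all was 0.42 (SE 0.11, limma adjusted p = 0.0110). The lowest untrained value was CA3 untrained 1, without which the difference was 0.36 (limma adjusted p = 0.0435). The call was lost without the animal untrained 1 (0.32, limma adjusted p = 0.151) or trained 2 (0.40, limma adjusted p = 0.0778), and with 1 value per animal (0.40, limma adjusted p = 0.0577).

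Pcdha9 was at 94.7, 113.8 and 117.6 in untrained CA1 and at 120.9, 121.4 and 137.6 in trained CA1. In CA3 it was at 112 and 117.6 against 124.4, 136.5 and 141.6, and in DG at 87.2 and 116.4 against 151.6, 154 and 181.9. Groups did not overlap here either, and the gap was widest in DG. The difference was 0.67 in DG (SE 0.17, limma adjusted p = 0.0362) and 0.36 over all (SE 0.09, limma adjusted p = 0.0130), or 0.39 without CA3 untrained 1 (limma adjusted p = 0.0202). The DG call was lost without any 1 of the trained DG libraries (0.59 to 0.72, limma adjusted p of 0.111 to 0.176) or DG untrained 3 (0.47, limma adjusted p = 0.0689). The call over all was lost without the animal untrained 1 (limma adjusted p = 0.0755) or trained 2 (0.0601). The effect in CA1 against that in DG was −0.45 (SE 0.20, limma adjusted p = 0.242).

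Pcdhga9, a gamma A isoform, rose in CA1. It was at 168, 190.6 and 196.9 in untrained CA1 and at 279.3, 289.4 and 293.2 in trained CA1, a difference of 0.63 (SE 0.11, limma adjusted p = 0.00118). In CA3 it was at 187.4 and 249.8 in untrained and at 250.1, 256.6 and 273.2 in trained libraries, and the higher untrained value came from CA3 untrained 1. In DG the groups overlapped, at 212 and 266.4 in untrained and 219.1, 238.9 and 249.3 in trained libraries. Over the 3 subregions the difference was 0.32 (SE 0.09, limma adjusted p = 0.0211), and 0.37 without CA3 untrained 1 (limma adjusted p = 0.0138). This call was lost without the animal untrained 1, untrained 2, trained 1 or trained 2 (0.27 to 0.33, limma adjusted p of 0.0625 to 0.115).

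Pcdhga3 and Pcdhgb6, gamma A and B isoforms, fell over the 3 subregions. Pcdhga3 was at 299.6, 305 and 339.9 in untrained and at 280.6, 281.3 and 298.9 in trained CA1. In CA3 it was at 300.6 and 306.7 against 265.8, 272.9 and 278, and in DG at 322.5 and 399.1 against 261.7, 304.1 and 322.1. Groups came close without overlapping in CA1 and DG, and the difference was −0.19 (SE 0.06, limma adjusted p = 0.0473). The call was lost without any 1 animal other than untrained 3, at −0.12 without untrained 1 and −0.20 to −0.18 without the others (limma adjusted p of 0.0852 to 0.369), and with 1 value per animal (−0.17, limma adjusted p = 0.112).

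Pcdhgb6 was at 320.2, 331.2 and 340.8 in untrained and at 242.2, 272.6 and 283.5 in trained CA1. In CA3 it was at 270.9 and 387.7 against 239.8, 242.3 and 252.3, with CA3 untrained 1 the highest of all 16. In DG the groups overlapped, at 284.1 and 285.5 in untrained and 264.6, 268.3 and 309.7 in trained libraries. The difference was −0.25 (SE 0.07, limma adjusted p = 0.0277), and without CA3 untrained 1 it was −0.18 (limma adjusted p = 0.106). The call was also lost without the animal untrained 1, trained 1 or trained 3 (−0.18, −0.24 and −0.21, limma adjusted p = 0.190, 0.0882 and 0.114), and with 1 value per animal (−0.24, limma adjusted p = 0.0542). Pcdhga3 was also lost without CA3 untrained 1 (−0.19, limma adjusted p = 0.0771). Without that library 974 of 15293 genes were called, and the 5 members then called were Pcdha2, Pcdha9, Pcdha12, Pcdhga9 and Pcdhgb5, a gamma B isoform that was higher by 0.29 (limma adjusted p = 0.0276).

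**Figure D4:**
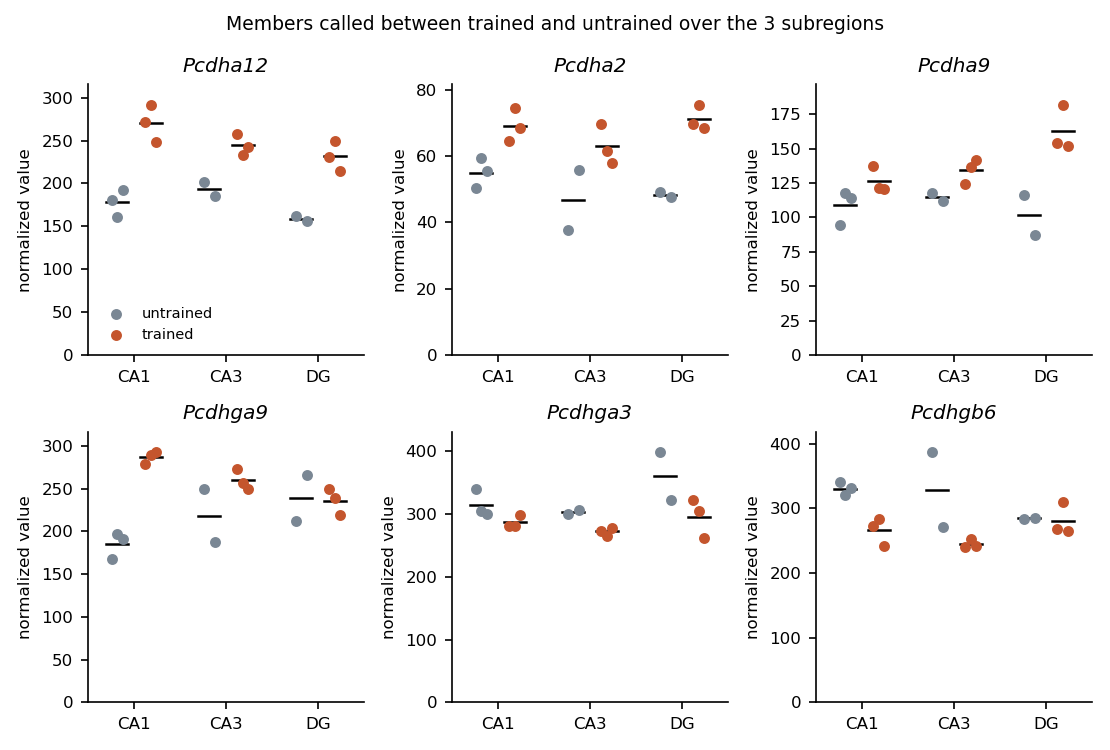
Normalized value per library of the 6 members called between trained (orange) and untrained (gray) mice over the 3 subregions, with points as libraries and black lines as group means. In Pcdha12, Pcdha2 and Pcdha9 all trained points lie above the untrained points of the same subregion, and in Pcdhga3 all lie below.

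These 6 calls cannot be separated from the sex-linked transcripts. With a term for sex-linked expression, 0 of 57 members and 0 of 14673 genes were called by limma over the 3 subregions. The estimates were then smaller for Pcdha12 (0.25, limma adjusted p = 0.549), Pcdha9 (0.20, limma adjusted p = 0.803) and Pcdhga9 (0.00, limma adjusted p = 0.997). They were larger in size for Pcdha2 (0.56, limma adjusted p = 0.397), Pcdhga3 (−0.22, limma adjusted p = 0.602) and Pcdhgb6 (−0.71, limma adjusted p = 0.0580). Training groups did not overlap for 15 of 57 members in CA1 (24% of all genes), 21 in CA3 (33.9%) and 18 in DG (35.6%). In all 3 subregions together, 4 of 57 members did not overlap between training groups in a shared direction (Pcdha2, Pcdha9 and Pcdha12 higher, Pcdhga3 lower), 7.02% compared with 2.92% of all genes.

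C-type members were not called for training in any subregion by limma in the main fits. Alternatives called Pcdhgc3 higher. Without untrained 3 it was called in CA1 (0.29, limma adjusted p = 0.0277) and over the 3 subregions (0.23, limma adjusted p = 0.00442). With array weights it was also called in both (limma adjusted p = 0.0429 and 0.0316). Pcdhgc5 was at 1708, 1803 and 1864 in untrained and 1543, 1642 and 1776 in trained CA1, at 1532 and 1652 against 1555, 1658 and 1706 in CA3, and at 1615 and 1884 against 1391, 1495 and 1547 in DG. The groups overlapped in CA1 and CA3 but not in DG, where the difference was −0.24 (SE 0.08, limma adjusted p = 0.0964), or −0.35 without DG untrained 3. Pcdhgc3 differed by 0.18 in CA1, 0.24 in CA3 and −0.05 in DG, Pcdhac2 by 0.01, 0.14 and 0.03, and Pcdhgc4 by −0.07, −0.05 and −0.05. Pcdhac1 differed by 0.33, −0.35 and 0.24, none of them called (limma adjusted p = 0.264, 0.201 and 0.402).

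Summed over the alpha cluster, CA1 was at 1662, 1699 and 1798 in untrained and at 1950.0, 1962 and 2033 in trained libraries. In CA3 the sums were 1796 and 1895 against 1951, 1972 and 2025, and in DG 1833 and 1913 against 1871, 1920.0 and 1937. The groups overlapped in DG alone. Trained over untrained, the ratio of alpha sums was 1.15 ± 0.031 (SE) in CA1, 1.07 ± 0.031 in CA3 and 1.02 ± 0.024 in DG. Adding the 3 read-through entries gave a ratio of 1.10 in DG, where sums of 1919 and 1926 stood against 2005, 2148 and 2196. The beta ratios were 0.963 ± 0.011 in CA1, 0.942 ± 0.052 in CA3 and 1.07 ± 0.046 in DG, and the gamma ratios 1.004 ± 0.030, 1.04 ± 0.037 and 0.954 ± 0.012. No test was run on these sums.

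The training effect differed between CA1 and DG for 3 of 57 members (5.26%, compared with 2.75% of all genes) in a limma fit of the 6 groups, namely Pcdhb8, Pcdhb11 and Pcdhga9. Pcdhb8, a beta isoform at low level, was at 26.4, 32.1 and 42.4 in untrained and 15.7, 18.4 and 19.1 in trained CA1. In DG it was at 11.1 and 16.3 in untrained and 27.8, 34.8 and 38.9 in trained libraries. The groups did not overlap in CA1 or in DG and lay in opposite order. The difference of effects was −2.03 (SE 0.43, limma adjusted p = 0.0164), and the call was lost without the animal trained 2 (−1.96, limma adjusted p = 0.0845).

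Pcdhb11 was at 106.7, 109.6 and 113.3 in untrained and 49.7, 72.6 and 99.5 in trained CA1, and at 66.0 and 70.6 against 81.6, 95.8 and 102.3 in DG. The difference of effects was −1.05 (SE 0.27, limma adjusted p = 0.0379), and the call was lost on leaving out any 1 animal (−1.26 to −0.89, limma adjusted p of 0.0612 to 0.131). For Pcdhga9 the difference was 0.64 (SE 0.17, limma adjusted p = 0.0375), lost without untrained 3 or any 1 trained animal (0.50 to 0.71, limma adjusted p of 0.0721 to 0.147). Without CA3 untrained 1 all 3 were called (limma adjusted p = 0.0174 for Pcdhb8, 0.0377 for Pcdhb11 and 0.0241 for Pcdhga9). The effects in CA3 against DG and in CA1 against CA3 gave no called member (0.164% and 0.0273% of all genes called by limma), with 10 members (11.7% of all genes) and 5 members (6.71% of all genes) at an unadjusted p under 0.05.

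The number of genes listed at 0 moved with these differences. All CA1 trained and DG untrained libraries were among the 7 with many genes at 0, and none of the CA1 untrained and DG trained libraries was. Pcdhb8 was at 11.1 to 24.1 in those 7 and at 26.4 to 42.4 in the other 9, with no overlap, the only 1 of 57 members of which this held (0.906% of all genes). Its value was lower by 0.20 on the log2 scale per 1000 genes at 0 (SE 0.04, limma adjusted p = 0.00317), and that of Pcdhb11 by 0.10 (SE 0.03, limma adjusted p = 0.0276). These were the 2 members called for that number, out of 57, compared with 5.75% of all genes. With the number as a term, an alternative chosen after seeing the data, no difference of effects in CA1 against DG was called for any member or for any of 14673 genes, where 404 genes were called without it. The differences were then −1.12 for Pcdhb8 (limma adjusted p = 0.865), −0.68 for Pcdhb11 (limma adjusted p = 0.882) and 0.54 for Pcdhga9 (limma adjusted p = 0.822). With the same term, the 6 calls over the 3 subregions remained.

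**Figure D5:**
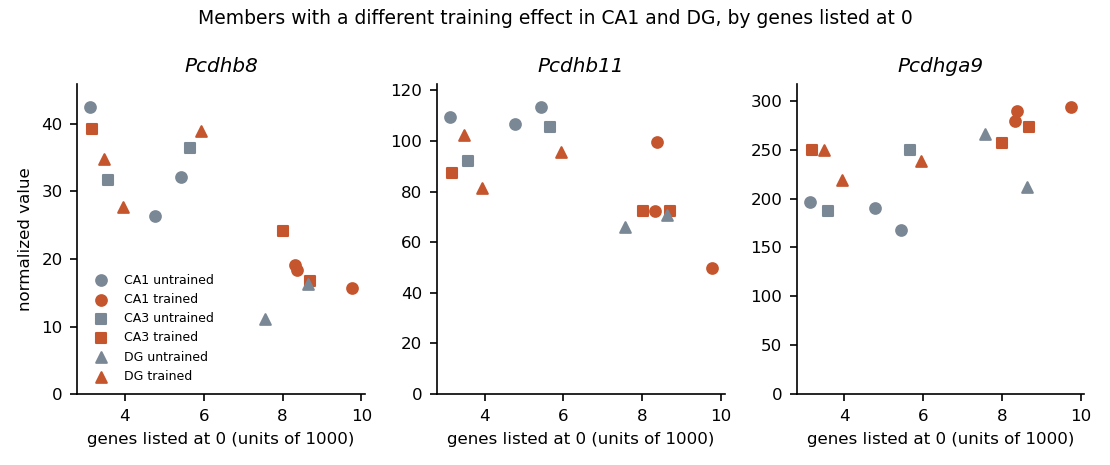
Normalized value of Pcdhb8, Pcdhb11 and Pcdhga9 against the number of genes listed at 0 in the same library (axis in units of 1000), by subregion (marker) and training (color), 16 libraries. For Pcdhb8 the 7 libraries with 7567 or more genes at 0 lie at 11.1 to 24.1, below the other 9.

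Genes that act on the clusters were followed as lists. Of 27 genes of chromatin architecture and silencing, 26 were listed and 26 tested over the 3 subregions, where 1 rose and 5 fell in trained mice, with a median difference of −0.10 compared with −0.01 over all genes (6.28% of all genes were called higher and 4.06% lower). Tet1, which removes DNA methylation, fell by 0.29 (SE 0.05, limma adjusted p = 0.00153). Pds5a, a cohesin regulator, fell by 0.15 (SE 0.04, limma adjusted p = 0.0159), and Rad21, a cohesin subunit, fell by 0.14 (SE 0.04, limma adjusted p = 0.0238). Ehmt2, a histone H3 methyltransferase, rose by 0.22 (SE 0.05, limma adjusted p = 0.00845). These 6 calls were likewise made in the fit without a term for sex-linked expression.

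Counts in single subregions and in the other lists stand against 5.23% of all genes called in CA1, 0.852% in CA3, 3.39% in DG and 10.3% over the 3 subregions. In single subregions 1 gene of that list rose in CA1 (Wiz, a partner of that methyltransferase, 0.43, SE 0.11, limma adjusted p = 0.0241), and 1 fell in DG (Smc3, a cohesin subunit, −0.35, SE 0.09, limma adjusted p = 0.0497). None was called in CA3. Of 23 protein partners and signaling genes, 1 rose over the 3 subregions (Aph1a, a gamma-secretase subunit, 0.19, SE 0.06, limma adjusted p = 0.0412). In CA1 Adam10, the sheddase that cuts protocadherins, fell by 0.25 (SE 0.07, limma adjusted p = 0.0313), and in CA3 Nlgn2, a neuroligin of inhibitory synapses, rose by 0.37 (SE 0.07, limma adjusted p = 0.0385). Of 13 non-clustered protocadherins none was called over the 3 subregions, where Pcdh1, Pcdh7 and the others had a median difference of 0.01. Pcdh12, an endothelial protocadherin, rose in DG by 2.06 (SE 0.53, limma adjusted p = 0.0450).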

How the data were processed

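Bulk RNA-seq was made by the authors from rRNA-depleted RNA. The authors' methods name STAR and Salmon, and per the labels reads were demultiplexed with bcl2fastq 2.20 and the build was GRCm38. The deposited signal is an estimated count per gene, normalized between libraries by the authors, and it was used as deposited. Whole reads were not recovered (54.0 to 84.6% of low values were within 0.05 of whole reads), so a test for counts, planned only for files of whole counts, was not used. The planned test was limma 3.58.1 in R 4.3.3, with trend and robust estimation on log2(value + 2). Genes were kept with a value of at least 10 in as many libraries as the smallest group holds, and p-values were adjusted by Benjamini-Hochberg over all genes kept, 13588 in CA1, 13848 in CA3, 13935 in DG and 14673 over all. Differences are on that scale and understate changes of low genes. Members and gene lists were chosen with earlier results of these data known. Named were the C-type members, per cluster the 3 others highest per kb and the 3 with the widest subregion means, members called in any of 10 comparisons, members at 0 in 1 library and at least 50 in another of a group, and at most 4 called genes a list. Transcripts were matched by RefSeq accession for 57 of 58 members in GENCODE M21, and single-exon lengths are RefSeq spans. No sequences are printed. Depth limits low members, and counting intervals are not given because the counts are unknown. No libraries agreed within sampling noise (the closest pair had 2.58 times the variance of counting). Libraries entered the fits as independent. Those sharing a number and training in the labels were taken as 1 animal where animals were left out or given 1 value each, which Xist goes against for untrained 1. Their deviations from group means had correlations of -0.108 to 0.092 over 14 pairs. The method was tested on simulated data.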

Additional observations from a re-analysis of the deposited data

Results flagged for a closer look

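The training effect differed between CA1 and DG in a limma fit of 6 groups for 3 members. The difference (CA1 minus DG, log2 scale) was −2.034 for Pcdhb8, −1.046 for Pcdhb11 and 0.645 for Pcdhga9. For Pcdhb8 all trained CA1 libraries were below the untrained ones and all trained DG libraries above. The 7 libraries with 7567 to 9759 genes at 0 include all trained CA1 and all untrained DG libraries, and the part of this split in the differences was not tested beyond the fit with that number as a term, in which the differences were −1.119, −0.679 and 0.54 (limma adjusted p = 0.865, 0.882 and 0.822) and 0 of 14673 genes were called, compared with 404 without the term.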

How the results depend on the processing

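No call of a member changed sign under any alternative run, and 58 of 231 repeats of a member's call lost it. Pcdha12 and Pcdhga9 in CA1 kept their calls under all 15 alternatives (limma adjusted p of 0.000184 to 0.0317 and 0.000227 to 0.0131), but the terms for sex-linked expression and for genes at 0, which both separate the training groups in CA1, were not run there. Pcdha12 over the 3 subregions lost its call under 1 of 19, the sex-linked term. Calls lost most often were those of Pcdhb11 for the difference of effects in CA1 against DG (8 of 14 alternatives), Pcdhga3 over the 3 subregions (10 of 19), Pcdhga9 for the difference of effects (6 of 14), Pcdha9 in DG (6 of 14), and over the 3 subregions Pcdhgb6 (6 of 19) and Pcdhga9 (5 of 19).

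Numbers of members called moved as follows, given with the number of all genes called. CA1 trained gave 6 with array weights (1149 genes, compared with 710) and 2 to 4 with 1 library left out (339 to 905 genes, 4 members without untrained 3). CA3 gave 0 without any 1 of the trained libraries (7 to 680 genes, compared with 118). Without untrained 1, which leaves 1 untrained library, Pcdha6 differed by 2.14. DG gave 4 without a filter (543 genes, compared with 473), 4 with at least 10 in every library (485), 1 without robust estimation (308) and 0 to 6 with 1 library left out (0 without any 1 of the trained libraries, with 28 genes without trained 2, 4 without untrained 1, with 747, and 6 without untrained 3, with 1758). The comparison over subregions gave 0 with the sex-linked term (0 genes), 3 with 1 value per animal (964 genes) and 2 to 7 with 1 animal's libraries left out (2 without untrained 1 or trained 2, with 438 and 554 genes, and 3 without trained 1, with 1023, compared with 1517). CA1 against DG gave 0 to 1 (17 to 285 genes with 1 animal or the CA3 untrained 1 library left out, compared with 286). Pcdhga10 was lost without untrained 1, trained 1 or trained 2 (limma adjusted p of 0.0509, 0.0633 and 0.112). The difference of effects gave 0 with the number of genes at 0 as a term and 0 to 2 with 1 animal left out in CA1 against DG (1 without untrained 3, trained 1 or trained 3, with 448, 184 and 206 genes, and 0 without trained 2, with 24, compared with 404), 3 without the CA3 untrained 1 library, and 0 to 1 in CA3 against DG (1 without trained 3). The DG alpha ratio was 1.06 over members above 0 in every library and 1.10 with read-through entries. Over the 3 subregions 438 to 1843 genes were called with 1 animal left out. A lone remaining library was assumed to vary like the others. The cause of these moves was not tested.

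With the replicate block, numbers were 1 in CA3 (Pcdhgc3, with 1160 genes compared with 118) and 1 in DG (Pcdha6, lower, with 500 genes compared with 473), where Pcdha12 (limma adjusted p = 0.0707) and Pcdha9 (0.0585) were lost, as was Pcdhga3 over subregions (0.0619). For the difference of effects in CA1 against DG, where the block was added after seeing the data, 1 member was called (Pcdhb8, with 366 genes compared with 404), and Pcdhb11 (limma adjusted p = 0.0501) and Pcdhga9 (0.0527) were lost. The block changed no other call. In comparisons between subregions it was the animal, that is number and training group together. Pcdhga10 was then higher in CA1 than in DG by 0.49 (limma adjusted p = 0.0199). Numbers are shared by the labels without a stated pairing between training groups, and same-numbered libraries of other groups had correlations of -0.18 to 0.119.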
